A study of Gallus gallus with 38 samples.

Results

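The smooth muscle contractile genes TAGLN, SYNPO2, ACTG2, MYH11, ACTA2 and DES were examined in the cecum and jejunum mucosa of 19 broilers. Members were the probe sets whose platform annotation gives one of these 6 symbols, and where a gene had several, the brightest on average was taken. Of the 6 genes, 4 had a probe set of their own (TAGLN, SYNPO2, ACTG2 and MYH11, the last with 2). ACTA2 was measured only by a probe set whose annotation lists both ACTA2 and ACTG2, so its signal cannot be given to either gene and it is called here the probe set shared by ACTA2 and ACTG2. DES is not analysed here. In all, 6 of the 18308 probe sets on the array belonged to the group, and 5 of them are described throughout.

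Smooth muscle cells shorten when calcium, bound to calmodulin, activates a kinase that phosphorylates the regulatory light chain of myosin, and the myosin heads then pull on actin filaments. In the wall of the gut these cells form the outer muscle coat, a thin muscle sheet at the base of the mucosa (the muscularis mucosae) and strands in the core of the villi, and they also surround blood vessels. ACTG2 and ACTA2 are the actins of smooth muscle, with the gamma form typical of the gut and the alpha form typical of vessels in mammals. MYH11 is the smooth muscle myosin heavy chain. TAGLN (transgelin, SM22) and SYNPO2 (synaptopodin 2, myopodin) bind actin filaments.

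The birds were Ross 308 males raised on the same diet in 3 phases and slaughtered at 42 days (6 weeks in the sample labels). The mucosa was obtained by scraping rinsed tissue, and each bird gave 1 cecum and 1 jejunum array, 38 arrays in all. No treatments were compared. All chicks had been vaccinated, coccidiosis included, and birds of similar body weight were selected for sampling. Every bird served for both tissues, since the methods describe 19 subjects with both tissues after birds with degraded RNA had been discarded. How deeply the wall was scraped is not given in the sources used here, nor is the pen of each bird. A protocol label speaks of 38 birds, and a description label of every sample names a stomach mucosa, whereas titles and tissue labels give cecum and jejunum. SLC15A1, the peptide transporter of the small intestine, averaged a log2 signal of 3.88 in the cecum and 9.93 in the jejunum, which was the direction of the tissue labels.

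Values are log2 signals, so a difference of 1 is a factor of 2, and levels of different probe sets are not compared with each other. A transcript was a differentially expressed transcript (DET) at a fold change ratio (FCR, taken between the tissue means of the log2 signals) of at least 2 and a p under 0.05 from limma, a linear model with moderated variances, after Benjamini-Hochberg adjustment over all 18308 probe sets. Of these, 3.62% were DETs higher in the cecum and 3.68% were DETs higher in the jejunum (7.3% in all), and the median difference over all probe sets was 0.03. At an adjusted p under 0.05 and any fold, 25.1% favored the cecum and 20.1% favored the jejunum. Array medians lay between 5.57 and 5.75. The arrays that correlated least with the others of their tissue were the cecal array of bird 3 (median r 0.918) and the jejunal arrays of bird 19 (0.951), bird 5 (0.956) and bird 2 (0.960).

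All 5 probe sets were DETs with the higher signal in the cecum, as were 3.62% of all probe sets, with FCR values between 2.46 and 4.84. In 17 to 19 of the 19 birds the cecal signal exceeded the jejunal signal of the same bird. The lowest jejunal arrays lay far below every cecal array, while the highest jejunal arrays reached into the cecal range. Less muscle in a scraping and less RNA per muscle cell cannot be told apart in such samples.

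Of the actins, ACTG2 had a lowest, median and highest log2 signal of 8.95, 9.88 and 11.23 in the cecum, and of 7.28, 8.81 and 10.24 in the jejunum. The groups overlapped, with 5 cecal arrays above the highest jejunal array and 11 jejunal arrays below the lowest cecal one. The means were 9.99 ± 0.60 in the cecum and 8.65 ± 0.86 in the jejunum (SD, n = 19 each), a difference of 1.35 (SE 0.23, 95% confidence interval 0.89 to 1.80, limma adjusted p = 3.59e-06) and an FCR of 2.54. ACTG2 was higher in the cecum in 17 of 19 birds. The exceptions were bird 19, with a difference of -0.62, and bird 8, with -0.15.

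The probe set shared by ACTA2 and ACTG2 had the largest mean difference of the 5. Its lowest, median and highest signals were 8.06, 9.61 and 10.38 in the cecum, and 4.79, 7.48 and 8.90 in the jejunum. Of the cecal arrays, 17 of 19 lay above every jejunal array, and the cecal array of bird 3 was the lowest of its tissue. The means were 9.57 ± 0.55 in the cecum and 7.29 ± 1.09 in the jejunum, and the difference was 2.28 (SE 0.26, 95% confidence interval 1.75 to 2.81, limma adjusted p = 1.16e-09, FCR 4.84). All 19 birds had the higher signal in the cecum, and in 18 of them the difference was at least 1.

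MYH11, the motor protein of the group, ranged over 8.28, 9.48 and 10.42 (lowest, median and highest) in the cecum and over 5.10, 8.35 and 10.05 in the jejunum. Only 3 cecal arrays were above the highest jejunal array, that of bird 5. The means of MYH11 were 9.54 ± 0.48 in the cecum and 8.24 ± 1.12 in the jejunum, with a difference of 1.30 (SE 0.26, 95% confidence interval 0.77 to 1.83, limma adjusted p = 5.96e-05, FCR 2.46). The cecum was higher in 18 of 19 birds, and bird 7 had the contrary difference of -0.26. The second MYH11 probe set gave 9.41 ± 0.51 in the cecum and 7.96 ± 1.06 in the jejunum, a difference of 1.45 (limma adjusted p = 6.53e-06, FCR 2.73).

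Both actin-binding proteins were higher in the cecum of all 19 birds. TAGLN had a lowest, median and highest signal of 7.83, 8.24 and 9.30 in the cecum, and of 4.66, 6.57 and 8.54 in the jejunum. Here 18 of 19 jejunal arrays lay below the lowest cecal array, and the single exception was bird 5. The means of TAGLN were 8.36 ± 0.44 in the cecum and 6.56 ± 0.99 in the jejunum, a difference of 1.80 (SE 0.23, 95% confidence interval 1.32 to 2.27, limma adjusted p = 2.07e-08, FCR 3.47).

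SYNPO2 ranged over 6.93, 8.17 and 9.22 in the cecum and over 4.79, 6.78 and 8.25 in the jejunum. A total of 7 cecal arrays exceeded all jejunal arrays, and 11 jejunal arrays were under all cecal arrays. The means of SYNPO2 were 8.22 ± 0.50 in the cecum and 6.71 ± 0.80 in the jejunum, with a difference of 1.51 (SE 0.20, 95% confidence interval 1.09 to 1.92, limma adjusted p = 4.95e-08, FCR 2.84).

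**Figure D1:**
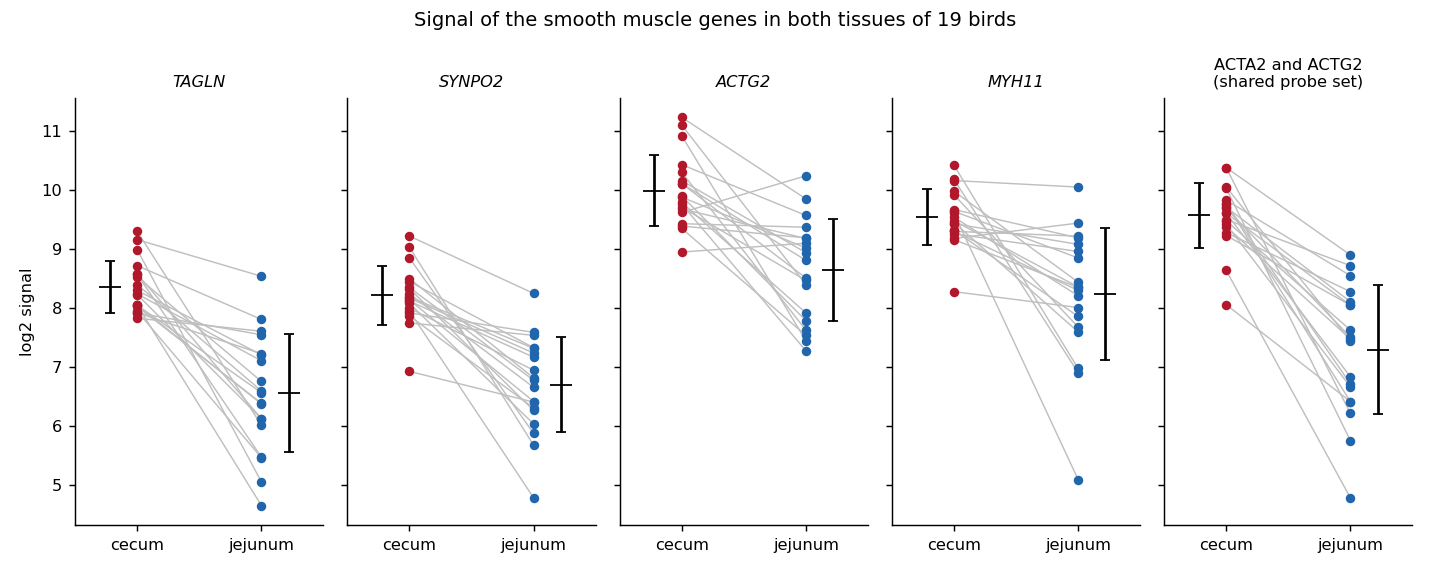
Log2 signal of each probe set (vertical axis) in the cecum (left, red) and jejunum (right, blue) of 19 birds. Lines join the tissues of a bird and the bars give mean ± SD. Nearly all lines fall toward the jejunum, and the jejunal points spread wider, down to 4.66 for TAGLN and 5.10 for MYH11.

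The size of the tissue difference was not the same for all probe sets. Within birds, the difference of the probe set shared by ACTA2 and ACTG2 exceeded that of TAGLN by 0.48 ± 0.24 (SD, 19 of 19 birds). It exceeded those of SYNPO2, ACTG2 and MYH11 by 0.77, 0.93 and 0.98, in 18, 17 and 18 birds. Each of these 4 contrasts had an adjusted p of 5.0e-05 in a two-sided permutation test that flips the sign by bird (adjusted over the 10 pairs, which were compared after their values had been seen). The difference of TAGLN was larger than that of MYH11 by 0.50 (16 of 19 birds, adjusted p = 0.00266) and than that of ACTG2 by 0.45 (13 of 19 birds, adjusted p = 0.00567). It was larger than that of SYNPO2 by 0.29 (13 of 19 birds, adjusted p = 0.0417), and this last contrast was 0.26 with an adjusted p of 0.0843 without birds 3 and 19, and 0.30 with an adjusted p of 0.0571 without birds 2, 3, 5 and 19. Between SYNPO2, ACTG2 and MYH11 the contrasts were 0.05 to 0.21 with adjusted p of 0.131 to 0.848. The SYNPO2 and MYH11 contrast was 0.29 (adjusted p = 0.0199) without birds 2, 3, 5 and 19. All contrasts with MYH11 used its brighter probe set, with a difference of 1.30. The second MYH11 probe set had a difference of 1.45 and was not contrasted, so the size of these contrasts depends on the probe set. How far probe sets differ in their response to the same change was not tested.

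The single birds differed widely in how far the tissues lay apart. For TAGLN the smallest difference was 0.22, in bird 19, and the largest was 3.93, in bird 1, with a median of 1.67. For SYNPO2 the differences ran from 0.21 in bird 19 to 3.35 in bird 6, and for the probe set shared by ACTA2 and ACTG2 from 0.78 in bird 19 to 4.27 in bird 1. ACTG2 reached 3.47 in bird 1, and MYH11 reached 4.51 in bird 2. Thus bird 19 had the smallest difference for 4 of the 5 probe sets, and bird 1 the largest for 3 of the 5.

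At the extremes, jejunal arrays lay farther from their tissue means than cecal arrays. The jejunal array of bird 2 lay on average 2.04 below the tissue means of the 5 probe sets, and that of bird 1 lay 1.28 below. Bird 1 was among the lowest 3 jejunal arrays for all 5 probe sets. At the other end, the jejunal array of bird 5 lay on average 1.57 above the tissue means and was among the highest 3 for all 5, followed by bird 19 (1.12 above) and bird 9 (1.06 above). In the cecum the extremes were closer, with bird 3 at an average of 1.01 below and bird 6 at 0.91 above the tissue means. Bird 1 was at 0.66 above the cecal means, although it was among the lowest in the jejunum, and bird 5 was high in both tissues (0.73 above in the cecum).

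The spread between birds was compared by the ratio of the standard deviations, cecum over jejunum, with a two-sided permutation test that swaps the tissues within birds (adjusted over the 5 probe sets). TAGLN had an SD of 0.437 in the cecum and 0.992 in the jejunum, a ratio of 0.441 (adjusted p = 0.0143). For the probe set shared by ACTA2 and ACTG2 the SD was 0.545 in the cecum and 1.09 in the jejunum, a ratio of 0.50 (adjusted p = 0.0170). These spreads were wider in the jejunum. MYH11 had an SD of 0.475 in the cecum and 1.12 in the jejunum, a ratio of 0.426 (adjusted p = 0.0400), and this call was lost when any one of birds 1, 2, 5, 7, 9, 13, 16, 17, 18 or 19 was left out (ratio 0.583 and adjusted p = 0.0696 without bird 2). For SYNPO2 (SD 0.498 in the cecum and 0.802 in the jejunum, ratio 0.622) and ACTG2 (SD 0.604 in the cecum and 0.861 in the jejunum, ratio 0.702) the adjusted p was 0.0966 each. SYNPO2 passed without bird 3 (ratio 0.487, adjusted p = 0.00055), and ACTG2 passed without bird 6 (0.630, adjusted p = 0.0321) or bird 8 (0.643, adjusted p = 0.0307).

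As a range, TAGLN signals spanned 2.77-fold in the cecum and 14.7-fold in the jejunum, and MYH11 signals spanned 4.41-fold in the cecum and 30.9-fold in the jejunum. Over all 18308 probe sets, by contrast, the median SD was 0.295 in the cecum and 0.269 in the jejunum. Of these, 43.7% had the higher SD in the jejunum. In the gene lists described below, this held for 6 of 6 other contractile proteins and 6 of 6 fibroblast markers (median SD 0.526 in the cecum and 1.01 in the jejunum). It also held for 6 of 7 endothelial, 4 of 5 mural cell and 5 of 5 epithelial markers. The count was 4 of 10 for the RhoA pathway, 8 of 20 for receptors and G proteins and 1 of 7 for skeletal muscle markers. The jejunal SDs of the 5 muscle probe sets lay between the 97.9th and 99.5th percentile of all probe sets. Their cecal SDs lay between the 88.1st and 97.0th. Their SD ratios were less extreme for some, when ranked from the lowest among probe sets of similar level (a log2 window of 0.5). TAGLN lay at percentile 1.41, MYH11 at 1.51, the shared probe set at 3.98, SYNPO2 at 9.06 and ACTG2 at 18.6. The jejunal arrays of birds 2, 5 and 19, which stood apart from their tissue, were extremes of these genes too. Without birds 2, 3, 5 and 19 the ratios were 0.506 for TAGLN, 0.554 for SYNPO2, 0.840 for ACTG2, 0.477 for MYH11 and 0.373 for the probe set shared by ACTA2 and ACTG2.

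**Figure D2:**
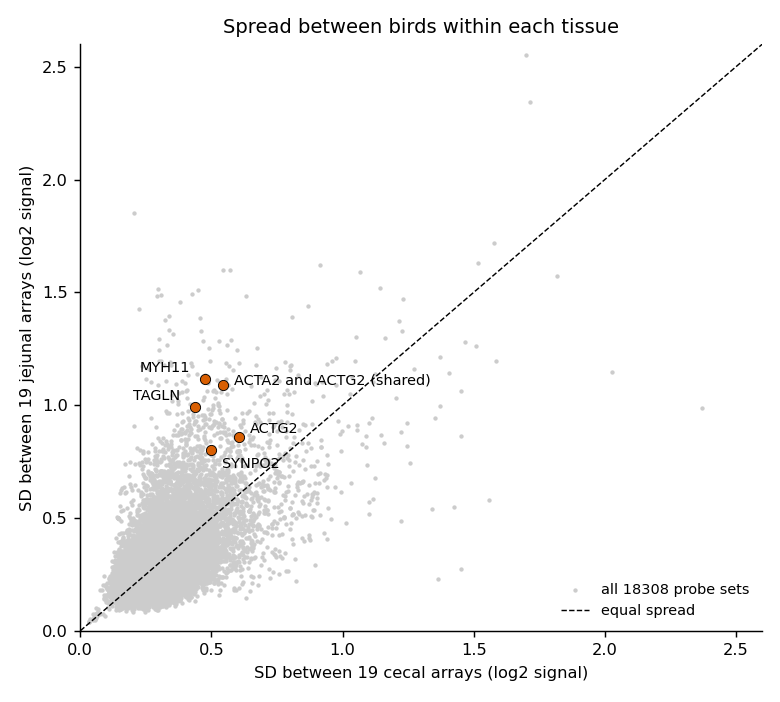
Standard deviation between birds of each probe set in the 19 cecal arrays (horizontal axis, log2 signal) and the 19 jejunal arrays (vertical axis, log2 signal). Grey points are all 18308 probe sets, orange points the muscle genes, and the dashed line marks equal spread. The 5 muscle probe sets lie above the line, with jejunal SDs of 0.802 to 1.12 and cecal SDs of 0.437 to 0.604.

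Across birds, the muscle genes moved together within each tissue. Among the 10 pairs, Pearson's r across the 19 birds ran from 0.61 to 0.94 in the cecum (median 0.79) and from 0.68 to 0.96 in the jejunum (median 0.91). Spearman's rho ran from 0.65 to 0.89 in the cecum and from 0.82 to 0.95 in the jejunum. All 10 pairs passed in each tissue (permutation test, two-sided, adjusted over the 20 correlations, largest adjusted p of r 0.00601 in the cecum and 0.00101 in the jejunum, and of rho 0.00291 in the cecum and 7.69e-05 in the jejunum). The 2 birds farthest from the median of the first probe set of a pair were then left out. The order was TAGLN, SYNPO2, ACTG2, MYH11 and the shared probe set. After this, r was 0.56 to 0.90 in the cecum and 0.71 to 0.93 in the jejunum, with a largest adjusted p of 0.0221 in the cecum and 0.00125 in the jejunum. The highest correlation in both tissues was that of SYNPO2 with MYH11, at 0.94 in the cecum and 0.96 in the jejunum. ACTG2 was in the lowest pair of each tissue, with the probe set shared by ACTA2 and ACTG2 in the cecum (0.61) and with MYH11 in the jejunum (0.68). The 2 probe sets of MYH11 correlated by 0.98 in the cecum and 0.99 in the jejunum. As a background, the mean of 7 housekeeping genes, described below, had an r to the mean of the muscle genes of 0.77 in the cecum and 0.02 in the jejunum. A list mean is not the same measure as a pair of probe sets. Movement together across cecal arrays was thus not particular to the muscle genes.

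**Figure D3:**
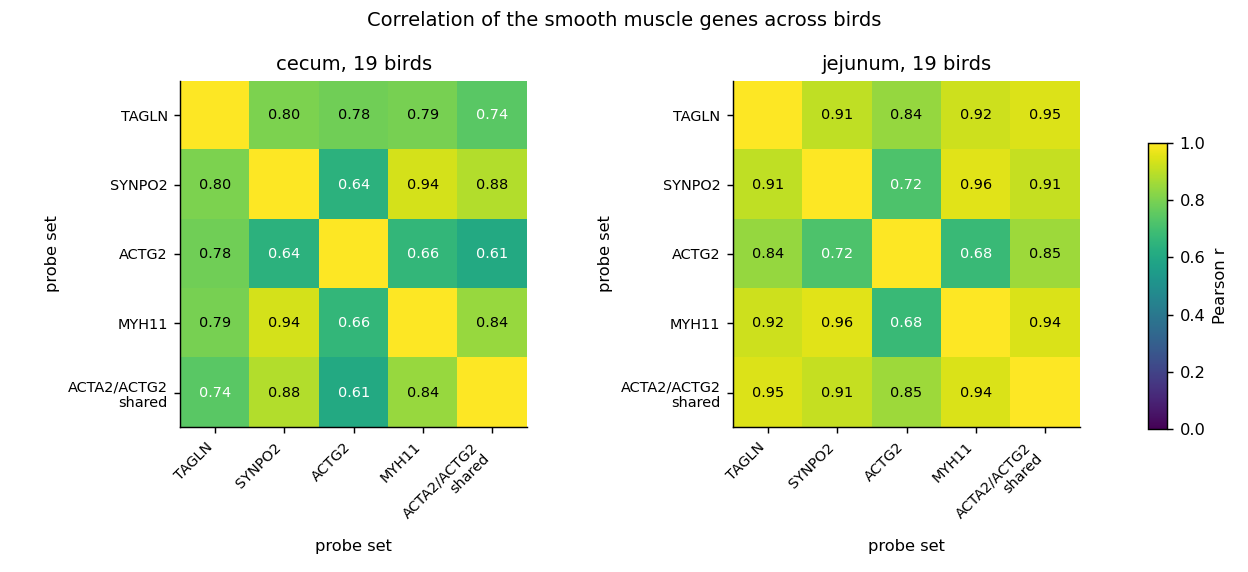
Pearson's r between probe sets across 19 birds, in the cecum (left) and jejunum (right), with the colour scale from 0 to 1. All pairs are positive, with values from 0.61 in the cecum and from 0.68 in the jejunum, and the rows of ACTG2 hold the lowest ones.

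No relation between the level of a bird in the cecum and its level in the jejunum was detectable with 19 birds. Pearson's r between the tissues of a bird was 0.01 for TAGLN, 0.09 for SYNPO2, -0.05 for ACTG2, -0.17 for MYH11 and 0.28 for the probe set shared by ACTA2 and ACTG2, with an adjusted p of 0.956 for each (permutation test over 19 birds, adjusted over the 5). Spearman's rho was -0.13, -0.01, -0.13, -0.24 and 0.06 in the same order, with an adjusted p of 0.968 for each. Without the 2 birds farthest from the median of the cecal signal, r was -0.23, -0.31, -0.28, -0.14 and -0.22, with adjusted p from 0.50 to 0.606. Birds with extreme jejunal signals were not left out on that ground.

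Named transcripts were ranked by their likeness to the muscle genes, measured as Pearson's r, over the 38 deviations of the arrays from their tissue mean, to the mean standardized deviation of the 5 probe sets. This is a description, and arrays of a tissue share whatever sets them apart. The most alike was MYLK, the kinase that phosphorylates the myosin light chain (r 0.96), followed by CSRP1, a LIM protein of the actin cytoskeleton, MYL9, the regulatory light chain itself, and CDH13, a cadherin without a cytoplasmic tail (0.94 each). All 4 were DETs higher in the cecum. MYLK averaged 6.70 in the cecum and 5.57 in the jejunum (difference 1.13, limma adjusted p = 1.22e-06), and MYL9 averaged 8.97 in the cecum and 7.72 in the jejunum (difference 1.25, limma adjusted p = 2.11e-06). Next came SGCE, a sarcoglycan, SYNM, an intermediate filament protein of muscle, OGN, an extracellular proteoglycan, KCNMA1, the calcium-activated potassium channel that dampens smooth muscle excitation, CAP2, an actin-regulating protein, and TNC, a matrix glycoprotein (0.89 to 0.91).

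SGCE, SYNM and KCNMA1 were not DETs. SGCE averaged 6.21 in the cecum and 5.37 in the jejunum, a difference of 0.85 (limma adjusted p = 5.54e-06) that was below the fold threshold. SYNM averaged 6.11 ± 0.55 in the cecum and 5.93 ± 0.87 in the jejunum, a difference of 0.18 (limma adjusted p = 0.546), and was higher in the cecum in 9 of 19 birds. KCNMA1 averaged 6.66 ± 0.37 in the cecum and 6.50 ± 0.80 in the jejunum, a difference of 0.16 (limma adjusted p = 0.533), and was higher in the cecum in 10 of 19 birds. OGN stood at the other end, with 9.38 in the cecum and 6.95 in the jejunum, a difference of 2.42 (limma adjusted p = 1.67e-10).

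Of 12295 named probe sets, 126 had an r of at least 0.8. Of these 126, 39 (31.0%) were DETs higher in the cecum, 0 were DETs higher in the jejunum and 87 were not DETs. Among all 18308 probe sets, which include those without a name, 3.62% were DETs higher in the cecum. The share among the named ones alone is not given here. The lowest r belonged to TJP3, a tight junction protein (-0.76), EPHA1, an ephrin receptor (-0.75), SLC15A1 (-0.74), SLC19A3, a thiamine transporter (-0.71), and SEC16B, a protein of the endoplasmic reticulum exit sites (-0.70).

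The rest of the contractile apparatus was followed in lists of known genes. Of 16 other contractile proteins, 6 were measured and 3 were DETs, all higher in the cecum: MYLK (FCR 2.20), MYL9 (2.37) and CSRP1 (3.37). Among all probe sets 3.62% were DETs higher in the cecum. At any fold, 5 of the 6 passed in favor of the cecum and 1 in favor of the jejunum, beside 25.1% and 20.1% of all probe sets. The list's median difference was 0.83, beside 0.03 over all probe sets. TPM1, a tropomyosin, was named after its values were seen, and its difference of 0.53 (limma adjusted p = 4.59e-06) was below the fold threshold. MYL12A and TAGLN3, also named after their values were seen, had differences of 0.15 (limma adjusted p = 0.0222) and -0.24 (limma adjusted p = 0.0215). Their r to the muscle genes over the 38 deviations was -0.20 and -0.06. TAGLN3 was dim, with means of 3.00 in the cecum and 3.24 in the jejunum. CNN1, LMOD1, SMTN, CALD1 and TPM2, further markers of smooth muscle, are not analysed here.

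Dense plaques are the sites where actin filaments of smooth muscle attach to the membrane. Of 24 genes for these plaques and for filament partners, 14 were measured. PDLIM3, NEXN and VIM were DETs higher in the cecum (FCR 2.44, 2.56 and 2.28) and 0 were higher in the jejunum, beside 3.62% and 3.68% of all probe sets. NEXN averaged 4.37 in the cecum and 3.02 in the jejunum, so dim that its fold is uncertain without a measure of background. PDLIM3 was dim in the jejunum, with a mean of 4.88, and its fold is uncertain for the same reason. At any fold, 11 of the 14 passed in favor of the cecum, beside 25.1% of all probe sets, and 0 in favor of the jejunum, beside 20.1%. The median difference was 0.54. The mean of this list followed the muscle genes closely, with r 0.92 across cecal and 0.96 across jejunal arrays.

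Genes of the signaling that drives contraction are read beside the 7.3% of all probe sets that were DETs. Of 16 measured calcium and potassium channels and pumps, CACNB2, a calcium channel subunit (FCR 2.03), and TRPC6, a cation channel (2.42), were DETs higher in the cecum. RYR3, a calcium release channel, was a DET in the contrary direction, with means of 3.01 in the cecum and 4.38 in the jejunum, a difference of -1.37 (limma adjusted p = 6.37e-11, higher in the jejunum in 18 of 19 birds). TRPC6 and RYR3 had mean signals under 5 in both tissues, and without a measure of background their folds are uncertain. Of 10 measured genes of the RhoA and myosin phosphatase pathway, which sustains contraction, 0 were DETs, and 2 passed at any fold in favor of the cecum and 1 in favor of the jejunum, beside 25.1% and 20.1% of all probe sets. With 10 genes, these counts do not set the pathway apart from the rest of the array. RHOA averaged 9.64 in the cecum and 9.69 in the jejunum (limma adjusted p = 0.537), and PPP1CB, the catalytic subunit of myosin phosphatase, 9.47 in the cecum and 9.30 in the jejunum (limma adjusted p = 0.0935). Of 8 listed genes of relaxation by nitric oxide and cGMP, 4 were measured and 0 of these were DETs. GUCY1A1, GUCY1B1, PRKG1 and PDE5A are not analysed here, so the count does not describe the pathway as a whole. Among the measured genes, PDE3A had a difference of -0.64 (limma adjusted p = 3.68e-05) and NPR2 of 0.69 (limma adjusted p = 5.09e-08).

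Of 20 measured genes for receptors that act on gut muscle and for G proteins (GNAQ and GNA11), 18 were not DETs. EDNRB, an endothelin receptor, and VIPR2, a receptor of the relaxing peptide VIP, were DETs higher in the cecum, as were 3.62% of all probe sets. VIPR2 averaged 6.15 ± 0.62 in the cecum and 4.42 ± 0.53 in the jejunum (difference 1.72, limma adjusted p = 6.14e-11, 19 of 19 birds). Its jejunal mean lay below the median of every array, and without a measure of background its fold is uncertain. EDNRB averaged 8.55 ± 0.49 in the cecum and 7.09 ± 1.19 in the jejunum (difference 1.46, limma adjusted p = 2.63e-05, 19 of 19 birds). At any fold, 7 of the 20 passed in favor of the cecum and 5 in favor of the jejunum, near the 25.1% and 20.1% of all probe sets. PTGFR and BDKRB2, named after their values were seen, were among those in favor of the cecum. Each had an FCR of 1.99, just under the threshold (limma adjusted p = 3.06e-11 and 1.09e-06).

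Among 13 measured transcription factors of smooth muscle and gut mesenchyme, MYOCD, FOXF1 and TCF21 were DETs higher in the cecum, as were 3.62% of all probe sets. Of the 13, 5 passed at any fold in favor of the cecum and 1 in favor of the jejunum, beside 25.1% and 20.1% of all probe sets. Their median difference was 0.16, beside 0.03 over all probe sets. MYOCD, the coactivator that drives contractile genes together with SRF, averaged 5.82 ± 0.42 in the cecum and 4.79 ± 0.37 in the jejunum, a difference of 1.03 (limma adjusted p = 3.02e-09, 19 of 19 birds). The jejunal mean of MYOCD lay below the median of every array, so its fold is uncertain too. SRF itself, named after its values were seen, averaged 8.13 ± 0.26 in the cecum and 8.22 ± 0.26 in the jejunum, a difference of -0.08 (limma adjusted p = 0.474). GATA6, also named after its values were seen, was lower in the cecum in 19 of 19 birds, with a difference of -0.87 that was below the fold threshold (limma adjusted p = 6.09e-11).

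As list means, markers of fibroblasts, mural cells and endothelium moved with the muscle genes, mainly in the jejunum, and their part in the results was not tested. Of 6 measured fibroblast markers, LUM (FCR 5.57), PDGFRA (2.39) and COL1A2 (2.03) were DETs higher in the cecum, as were 3.62% of all probe sets. The mean signal of this list lay between 7.75 and 9.31 in the cecal arrays and between 5.39 and 9.13 in the jejunal arrays, and its r to the muscle genes was 0.71 in the cecum and 0.94 in the jejunum. DPT, a fibroblast marker named after its values were seen, had an r of 0.83 over the 38 deviations, 0.47 in the cecum and 0.91 in the jejunum. Its difference was nonetheless -0.89, with the higher signal in the jejunum in 17 of 19 birds (limma adjusted p = 0.00858).

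Of 5 measured markers of mural cells, which wrap small vessels, RGS5 (FCR 2.13), PDGFRB (2.50) and KCNJ8 (2.23) were DETs higher in the cecum. Among all probe sets this share was 3.62%. CSPG4 and ABCC9, named after their values were seen, did not pass. Their differences were 0.02 (limma adjusted p = 0.858) and 0.43 (limma adjusted p = 0.0659). Over the 38 deviations, their r was -0.12 and 0.74. CSPG4 was dim, with means of 4.61 in the cecum and 4.58 in the jejunum. The mural cell list ranged from 6.08 to 7.28 in the cecal arrays and from 4.61 to 6.79 in the jejunal arrays, with an r to the muscle genes of 0.50 in the cecum and 0.90 in the jejunum. Of 7 measured endothelial markers, VWF was a DET (FCR 3.10, higher in the cecum in 19 of 19 birds), beside 3.62% of all probe sets. CDH5 had a difference of 0.64 (limma adjusted p = 0.0160). Of the 7, 5 passed at any fold in favor of the cecum and 0 in favor of the jejunum, beside 25.1% and 20.1% of all probe sets. PECAM1, ERG and EGFL7 were named after their values were seen. PECAM1 and ERG did not pass, with differences of 0.01 (limma adjusted p = 0.966) and 0.37 (limma adjusted p = 0.0577). Over the 38 deviations, the r of single endothelial markers ran from 0.13 (EGFL7) to 0.84 (ERG), with 0.32 for PECAM1. The endothelial list ranged from 6.18 to 7.16 in the cecal arrays and from 4.85 to 7.14 in the jejunal arrays, with an r of 0.44 in the cecum and 0.87 in the jejunum. In the jejunum, then, the lists of fibroblasts, mural cells and endothelium rose and fell across birds along with the muscle genes.

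Of the 3 markers of interstitial cells of Cajal, the pacemaker cells of the gut, ANO1 (FCR 2.06) and ETV1 (2.83) were DETs higher in the cecum. Among all probe sets this share was 3.62%. KIT, named after its values were seen, had a difference of -0.53 (limma adjusted p = 0.000427), with the higher signal in the jejunum. ANO1 averaged 5.44 in the cecum and 4.39 in the jejunum, and KIT 4.80 in the cecum and 5.34 in the jejunum. These means lay below the median of every array, and without a measure of background their folds are uncertain. Of 8 measured neuronal markers 0 were DETs, beside 7.3% of all probe sets. At any fold, 3 passed in favor of the cecum and 2 in favor of the jejunum, beside 25.1% and 20.1% of all probe sets. The neuronal list had an r of -0.38 in the cecum and -0.32 in the jejunum to the muscle genes. Its mean signal was 3.96 in the cecum and 3.74 in the jejunum, below the median of every array. TUBB3 was the brightest, with 6.83 in the cecum and 5.90 in the jejunum. Without a measure of background, the counts and r of so dim a list are uncertain. TUBB3 had a difference of 0.93 (limma adjusted p = 1.5e-05) and RET of -0.34 (limma adjusted p = 0.0197). Of 3 measured glial markers, S100B was a DET higher in the cecum (FCR 3.83), as were 3.62% of all probe sets. FABP7 had a difference of 0.81 (limma adjusted p = 3.79e-06). SOX10, named after its values were seen, was dim, with means of 4.61 in the cecum and 4.56 in the jejunum. Its difference was 0.06 (limma adjusted p = 0.695). The glial list had an r of -0.44 in the cecum and 0.22 in the jejunum.

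Markers of striated muscle were dim. All 11 measured markers of skeletal and cardiac muscle averaged at most 5.30 in the cecum and 5.21 in the jejunum, below the median of every array. Of these 11, 0 were DETs, beside 7.3% of all probe sets. MYOG, a skeletal muscle transcription factor, had a difference of 0.09 (limma adjusted p = 0.482). Of the cardiac markers, MYH7 had one of 0.14 (limma adjusted p = 0.211) and MYL2 of 0.05 (limma adjusted p = 0.746). ACTA1, the skeletal actin, had a difference of 0.67 (limma adjusted p = 4.34e-05), with means of 5.03 in the cecum and 4.36 in the jejunum.

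Of 5 measured epithelial markers, CDX2, a transcription factor of the intestinal lining, was a DET higher in the cecum (FCR 2.33), as were 3.62% of all probe sets. At any fold, 4 of the 5 passed in favor of the cecum and 0 in favor of the jejunum, beside 25.1% and 20.1% of all probe sets. The median difference was 0.38, beside 0.03 over all probe sets. CDH1, the cadherin of epithelial junctions, had a difference of 0.27 (limma adjusted p = 0.0119), and EPCAM, the one that did not pass, averaged 11.5 in the cecum and 11.4 in the jejunum (limma adjusted p = 0.340). ELF3 and CDX1, named after their values were seen, had differences of 0.56 (limma adjusted p = 1.31e-06) and 0.38 (limma adjusted p = 0.000464). The epithelial list lay between 9.23 and 9.81 in the cecal arrays and between 8.48 and 9.36 in the jejunal arrays, with an r to the muscle genes of 0.04 in the cecum and -0.31 in the jejunum. Of 5 measured genes for actins and myosins of other cells, with TMSB4X counted among them, 0 were DETs, beside 7.3% of all probe sets. At any fold, 3 of these 5 passed in favor of the cecum and 0 in favor of the jejunum, beside 25.1% and 20.1%. ACTG1 and MYH9, named after their values were seen, had differences of 0.68 (limma adjusted p = 1.53e-10) and 0.29 (limma adjusted p = 3.03e-05). The list had an r to the muscle genes of 0.74 in the cecum and 0.73 in the jejunum. ACTB averaged 11.6 in the cecum and 11.5 in the jejunum (limma adjusted p = 0.575). TMSB4X, which binds actin monomers, averaged 11.7 in the cecum and 11.9 in the jejunum (limma adjusted p = 0.254). MYH10, a myosin of non-muscle cells named after its values were seen, had an FCR of 1.98, just under the threshold. Its r was 0.88 over the 38 deviations, 0.65 in the cecum and 0.93 in the jejunum. Of 7 measured housekeeping genes 0 were DETs, beside 7.3% of all probe sets. At any fold, however, 3 passed in favor of the cecum and 2 in favor of the jejunum, beside 25.1% and 20.1% of all probe sets. EEF1A1, a translation elongation factor, had a difference of 0.22 (limma adjusted p = 0.00051) and PPIA, a cyclophilin, of 0.54 (limma adjusted p = 5.48e-08). B2M, named after its values were seen, had a difference of -0.58, with the higher signal in the jejunum in 19 of 19 birds (limma adjusted p = 1.14e-11). The housekeeping list had an r of 0.77 to the muscle genes in the cecum and 0.02 in the jejunum.

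**Figure D4:**
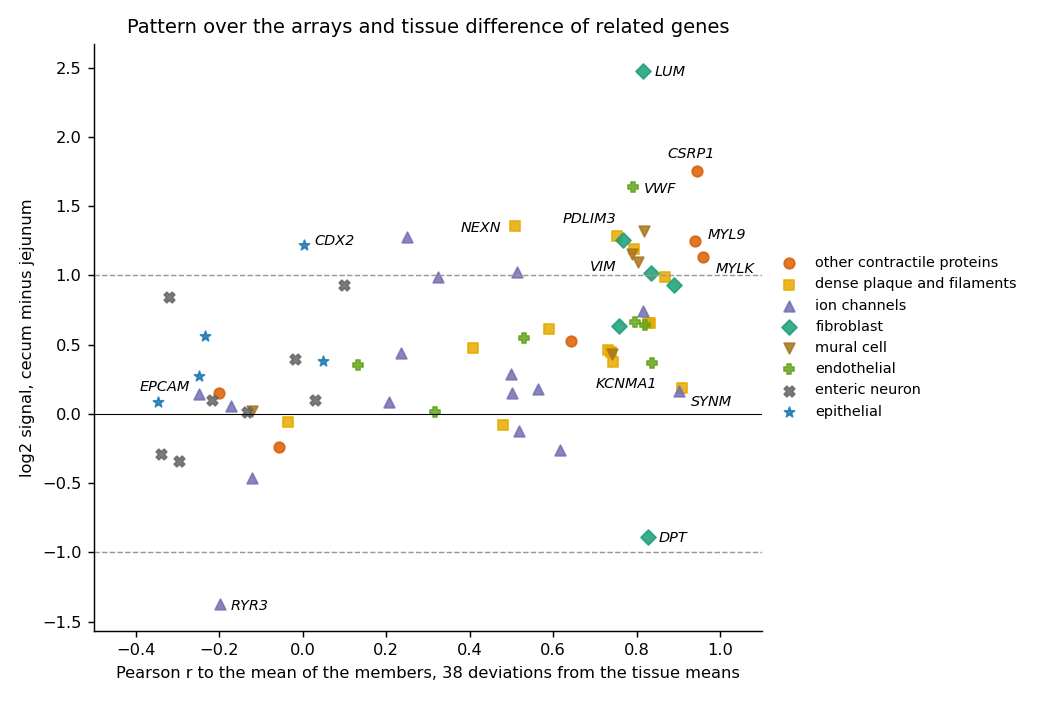
Likeness to the muscle genes (horizontal axis, Pearson's r over 38 deviations from the tissue means) and tissue difference (vertical axis, log2 signal, cecum minus jejunum) of the genes in 8 lists, by symbol and colour. Dashed lines mark a factor of 2. CSRP1, MYL9 and MYLK lie to the right and above the line, SYNM and KCNMA1 lie nearly as far right with differences of 0.18 and 0.16, and DPT lies to the right at -0.89.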

How the data were processed

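Cecum and jejunum mucosa of 19 broilers was analysed on Affymetrix Chicken Gene 1.0 ST arrays. The authors deposited normalized log2 signals of 18308 probe sets with 2 decimals. Scan analysis used the Transcriptome Analysis Console (version 4.0.1.36), and the sources used here do not state how background, normalization or summarization were handled. Nothing was normalized again. Precision is limited by how many arrays there are.

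Gene names came from the platform annotation (12300 with 1 symbol, 256 with several, 5752 with none). The model was fitted in limma (version 3.58.1, under R version 4.3.3), where lmFit and eBayes were run with a single term for tissue. Permutation tests used 100000 resamples and can give no p smaller than 1e-05. Python 3.11.15, scipy 1.17.1, pandas 2.3.3, numpy 2.4.6 and matplotlib 3.10.9 were used. All steps were tested on simulated data. The muscle genes, the lists and the rules were chosen with earlier results of these data known. Named list genes were the DETs with the largest differences (up to 6) and, where fewer than 2 were DETs, the 2 with the highest mean signal. Named followers were the 10 highest and 5 lowest in likeness.

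Birds were paired by the number in the sample titles, since the methods give 19 subjects with both tissues. Deviations from the tissue means correlated by -0.006 on average between arrays of different birds and by 0.114 within a bird (range -0.133 to 0.411, 14 of the 19 positive). No 2 arrays of a tissue correlated above 0.988. Alternatives were the bird as a block, quantile normalization, centring of each array on its median, removal of dim probe sets (mean signal under 5 in cecum and in jejunum, which left 11718), array weights, no moderation, the mean of the MYH11 probe sets, the median absolute deviation for the spread, Spearman's rho, and leaving out each bird, birds 3 and 19, or arrays that stood apart. The last were partly added after seeing the data.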

Additional observations from a re-analysis of the deposited data

How the results depend on the processing

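The tissue differences kept their direction and their call in all 147 alternative values. Over these, the difference was 1.68 to 1.90 for TAGLN, 1.41 to 1.64 for SYNPO2, 1.23 to 1.49 for ACTG2, 1.12 to 1.45 for MYH11 and 2.17 to 2.40 for the probe set shared by ACTA2 and ACTG2, with a highest limma adjusted p of 0.000262 (MYH11). All 5 probe sets were DETs in all 30 alternatives, and DETs over all probe sets numbered 1257 to 1432. DETs higher in the cecum numbered 663 in the main fit and 602 with arrays centred on their median. Calls of list genes over the alternatives are not given here. Those of MYOCD, FOXF1, TCF21, CACNB2, COL1A2 and ANO1 lay close to the fold threshold. With the bird as a replicate block, there were 663 DETs for the cecum and 674 for the jejunum, and no call of the 5 changed. The spread was less stable, with 103 of 120 values on their side of the threshold. With arrays centred on their median the ratio of MYH11 was 0.438 (adjusted p = 0.0579). The ratio of SYNPO2 passed at 0.474 without birds 3 and 19 (adjusted p = 0.00185), at 0.554 without birds 2, 3, 5 and 19 (added after seeing the data, adjusted p = 0.00477) and at 0.431 by the median absolute deviation (adjusted p = 0.0491). Leaving out each bird in turn gave ratios of 0.379 to 0.490 for TAGLN, 0.487 to 0.756 for SYNPO2, 0.630 to 0.777 for ACTG2, 0.327 to 0.583 for MYH11 and 0.378 to 0.548 for the probe set shared by ACTA2 and ACTG2. TAGLN and that shared probe set kept their call in all 24 alternatives each. The TAGLN and SYNPO2 contrast lost its call at 0.26 without birds 3 and 19 and at 0.30 without birds 2, 3, 5 and 19, and the SYNPO2 and MYH11 contrast passed at 0.29 in the second setting. Between the tissues of a bird, the sign turned for TAGLN (rho -0.128, r -0.231 without the 2 birds farthest from the cecal median), SYNPO2 (rho -0.0105, r -0.305) and the shared probe set (r -0.219), with 0 past the threshold in each setting. The cause of these changes was not tested. Alternatives planned for DES were not run, and those planned for ACTA2 were run on the shared probe set.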
